A study of Mus musculus with 7 samples.

Results

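Aminoacyl-tRNA synthetases are the enzymes that join each amino acid to its matching tRNA, the step that supplies ribosomes with charged tRNA. Most amino acids are charged by a pair of nuclear genes, one for the cytosol and one, whose name ends in 2, for the mitochondrial matrix. In animals several of the cytosolic enzymes are bound together in a multisynthetase complex held by scaffold proteins, and many of their genes are known targets of ATF4, a transcription factor of the amino acid response. The genes described here were picked by symbol: 20 cytosolic and 16 mitochondrial synthetases, 36 of the 13051 distinct names in the table, each present as 1 transcript. They were measured by ribosome profiling, which sequences the mRNA pieces covered by ribosomes, in primary epidermis of mice with a transgenic knockout of Pelo (KO, 2 libraries) and of wild-type mice (WT, 2 libraries). Pelo encodes Pelota, a factor that releases stalled ribosomes. The labels give neither the driver or deleted part of the knockout, nor age or strain, nor whether replicates came from separate animals, so the tests measure only the spread between these samples. RNA-seq libraries (2 KO and 1 WT in the labels) were not analysed here, so more mRNA and more ribosomes per mRNA cannot be told apart, nor can more cells of a type and more RNA per cell.

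Coding footprints numbered between 4221675 and 5282276 per library. Pelo itself was lower in KO, with 24 and 21 footprints there and 101 and 61 in WT libraries (log2 change −1.65, adjusted p = 0.000807, edgeR). Summed marker genes of several cell types and epidermal layers differed between the genotypes. Dermal fibroblast genes (15 of 15 listed in all libraries) made up 4.45% and 5.05% of the KO libraries and 9.05% and 13.4% of the WT libraries by coding footprints, although the tissue is labelled epidermis. Cornified envelope genes (14 of 17 listed in all libraries) held 3.69% and 3.43% in KO and 1.12% and 1.03% in WT, and suprabasal keratinocyte genes (7 of 8) 6.41% and 5.75% in KO and 3.07% and 2.55% in WT. Basal keratinocyte genes (8 of 8) held 2.46% and 2.25% in KO and 1.63% and 1.74% in WT, though 2 of them were called higher and 3 lower. Langerhans and macrophage genes (8 of 9) held 0.335% and 0.352% in KO and 0.709% and 0.744% in WT, sebaceous genes (9 of 9) 0.0860% and 0.147% in KO and 0.530% and 0.525% in WT. Adipocyte genes (9 of 9) held 0.1015% and 0.0811% in KO and 0.255% and 0.187% in WT. Hair shaft genes, of which 2 of 9 were listed in all libraries, held 0.144% and 0.0525% in KO and 0.00407% and 0.00542% in WT. The part of these differences in the results below was not tested.

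Most cytosolic synthetases carried more footprints in the knockout, whereas all but 1 of the mitochondrial synthetases tested missed the threshold. Of 20 cytosolic genes, 14 rose, none fell and 6 did not pass the test (edgeR quasi-likelihood test, adjusted p under 0.05 over all 10953 genes). Among all genes tested, 39.0% were called, 19.9% higher and 19.1% lower. At an unadjusted p under 0.05, 15 cytosolic genes were higher and 0 lower in edgeR, and DESeq2 called 13 higher and 0 lower, beside 13.6% and 10.7% of all genes. With library totals in place of TMM factors, 12 cytosolic genes were called higher and 0 lower, beside 13.7% and 27.6% of all genes. Of 15 mitochondrial genes tested, only Mars2 passed, and it rose; 0 were lower in edgeR, also at an unadjusted p under 0.05, and DESeq2 called 0 in either direction. The median log2 change (KO over WT, so that 1 is a doubling) was 0.63 for the cytosolic and −0.02 for the mitochondrial genes, beside −0.02 for all genes tested. Together the 20 cytosolic genes took 0.243% and 0.238% of coding footprints in KO, with exact 95% binomial intervals of 0.2385% to 0.2472% and 0.2339% to 0.2429%. In WT they took 0.1785% and 0.176%, with intervals of 0.1749% to 0.1821% and 0.1722% to 0.1802%. The 15 mitochondrial genes took 0.0243% and 0.0209% in KO and 0.0254% and 0.0237% in WT, and here the genotypes overlapped. For each mitochondrial footprint there were 9.99 and 11.4 cytosolic ones in KO, against 7.03 and 7.44 in WT, and the genotypes did not overlap. With 2 libraries each, the smallest two-sided exact permutation p is 0.333, so these sums carry no test, and the difference between the compartments was not tested as such.

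**Figure D1:**
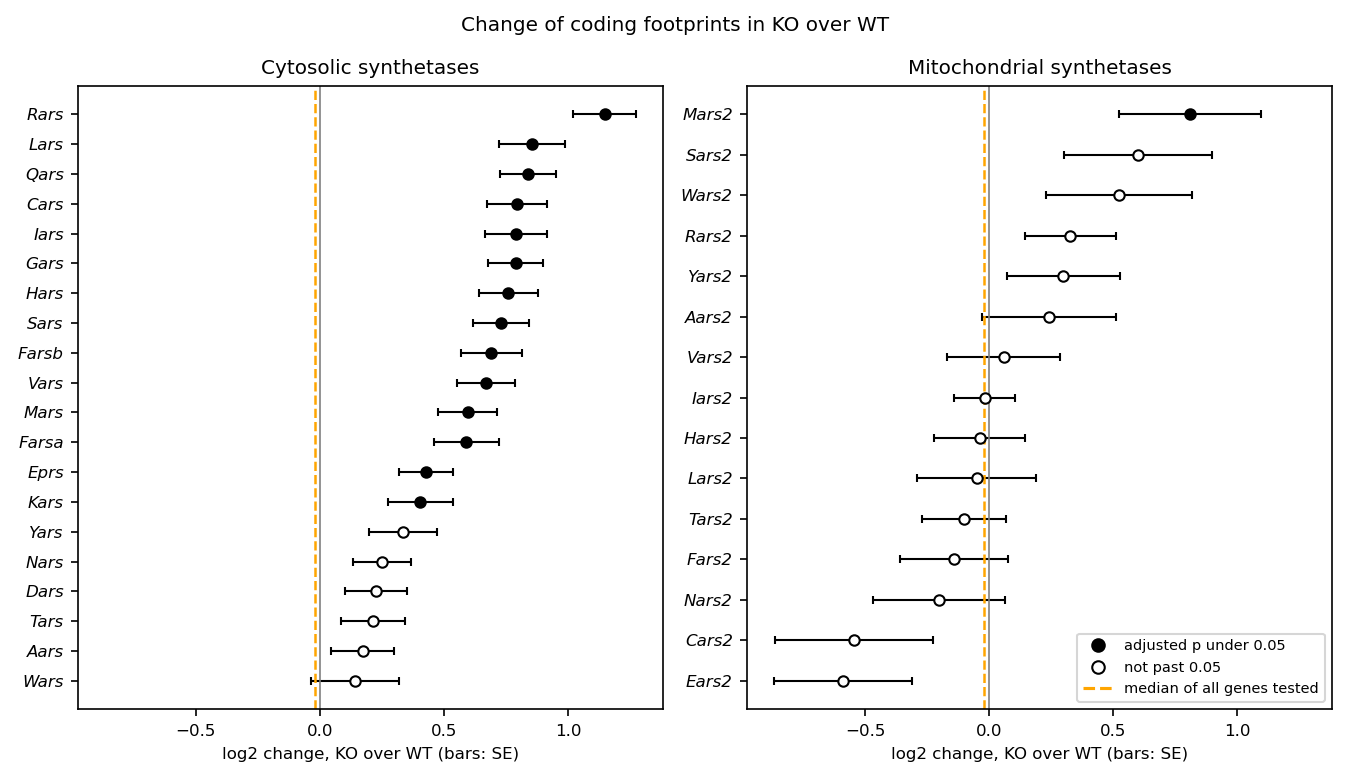
Log2 change of coding footprints (KO over WT, points, with SE bars) for the 20 cytosolic and 15 tested mitochondrial synthetases. Filled points passed an adjusted p of 0.05; all 20 cytosolic points lie to the right of the dashed median of all genes, whereas 7 of the 15 mitochondrial points lie above 0.

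The mitochondrial genes were measured less precisely. Their median level was 10.3 CPM (footprints per 1000000 coding footprints of the library, whose total is scaled by edgeR's TMM factor) and their median SE 0.240 on the log2 scale, against 91.8 CPM and 0.123 for the cytosolic genes. A change that passed in a cytosolic gene could therefore miss in a mitochondrial one, as with Farsa (0.59, SE 0.132) and Sars2 (0.60, SE 0.298). Their changes were nonetheless on both sides of 0, with 7 above and 8 below. Both KO libraries lay above both WT libraries for 19 of 20 cytosolic genes (35.4% of all genes tested), and for 4 of 15 mitochondrial ones. They lay below for no cytosolic gene and for 3 mitochondrial ones (36.5% of all genes tested).

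**Figure D2:**
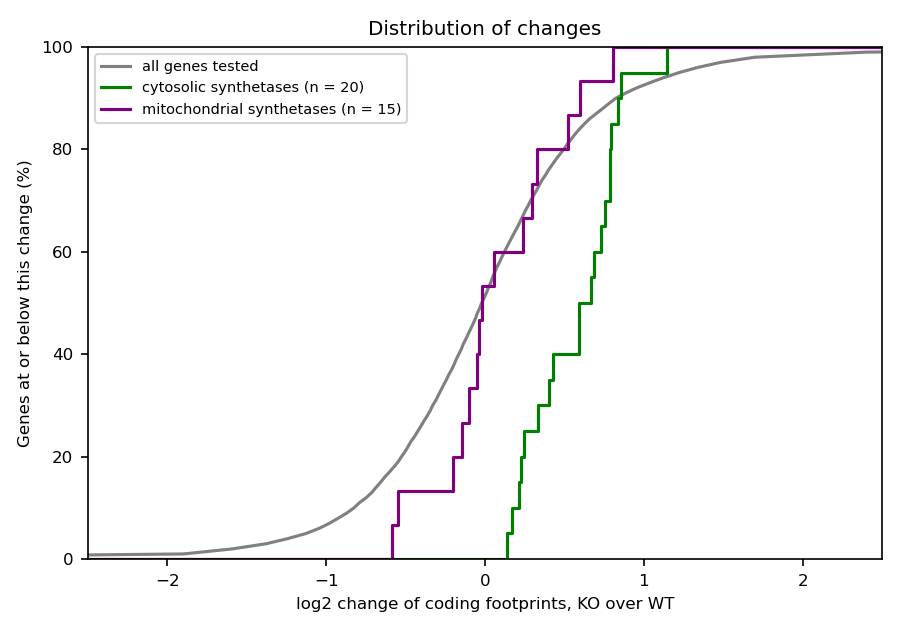
Cumulative share of genes (y axis, %) at or below a given log2 change of coding footprints, KO over WT (x axis), for all genes tested, 20 cytosolic and 15 mitochondrial synthetases. The cytosolic curve leaves 0% at 0.14 and reaches 100% at 1.15, while the mitochondrial curve runs from −0.59 to 0.81; the axis leaves out the tails of all genes.

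Among the 8 enzymes of the multisynthetase complex, 7 rose and Dars was not called, with a median log2 change of 0.69. Beside them, 19.9% of all genes tested were called higher. Rars, the arginyl-tRNA synthetase, changed most of all members. It had 257 and 213 CPM in KO and 107 and 105.5 CPM in WT, and both KO libraries stood well above WT (log2 change 1.15, SE 0.128, adjusted p = 0.000143). Lars, which charges leucine and is also known as a leucine sensor for mTORC1, had 228 and 191.5 CPM in KO and 109 and 124 CPM in WT. Its rise was 0.85 (SE 0.133, adjusted p = 0.00103). Qars, for glutamine, had 189.5 and 181 CPM in KO and 101 and 106 CPM in WT (0.84, SE 0.113, adjusted p = 0.000478). For Lars and Qars, as for Rars, the gap between genotypes was wider than the spread within either.

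Iars, for isoleucine, had 102 and 94.1 CPM in KO and 55.1 and 58.9 CPM in WT (log2 change 0.79, adjusted p = 0.00111). Mars, which charges methionine on initiator and elongator tRNAs alike, had 106 and 109 CPM in KO and 69.0 and 73.6 CPM in WT (0.59, adjusted p = 0.00396). Both were higher in each KO library than in either WT library. Eprs, a fused enzyme for glutamate and proline, was the member with the most footprints, 1539 and 1382 in KO and 1406 and 1059 in WT. At 339.5 and 321 CPM in KO against 247 and 244 CPM in WT, it rose by 0.43 (SE 0.109, adjusted p = 0.0129). Without KO replicate 1 the call on Eprs was lost (0.40, adjusted p = 0.0627), as it was with library totals alone (0.25, adjusted p = 0.0975). Dars, for aspartate, had 75.7 and 83.2 CPM in KO and 66.0 and 69.9 CPM in WT libraries, which missed the threshold (0.23, SE 0.124, adjusted p = 0.179).

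Kars, the lysyl enzyme, belongs to the complex and also serves mitochondria from the same gene, as does Gars for glycine outside it. Gars had 201 and 194 CPM in KO and 114.5 and 114 CPM in WT, a rise of 0.79 (SE 0.111, adjusted p = 0.000605). Kars had 94.0 and 86.9 CPM in KO and 73.0 and 63.5 CPM in WT, a smaller rise of 0.40 (SE 0.129, adjusted p = 0.0335). The call on Kars was lost without KO replicate 1 (0.36, adjusted p = 0.106), without WT replicate 2 (0.31, adjusted p = 0.166), with library totals (0.23), with DESeq2 (0.42) and with unlisted counts at 0 (0.41). The counts do not tell which compartment's form was translated. Without both genes, a choice made after the data were seen, the cytosolic median stayed at 0.63.

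The 3 scaffold proteins of the complex rose with its enzymes. Aimp1 had 85.4 and 81.1 CPM in KO and 47.7 and 50.8 CPM in WT (log2 change 0.76, adjusted p = 0.00131). Aimp2 had 54.1 and 45.8 CPM in KO and 34.5 and 26.1 CPM in WT (0.71, adjusted p = 0.00903). Eef1e1, which encodes Aimp3, had 13.5 and 16.7 CPM in KO and 6.86 and 6.69 CPM in WT (1.15, adjusted p = 0.00389). For all 3, both KO libraries were above both WT libraries, as they were for 35.4% of all genes tested. Of all genes, 19.9% were called higher.

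Of the 12 cytosolic enzymes outside the complex, 7 rose and 5 did not pass, with a median log2 change of 0.63. The share of all genes called higher was 19.9%. Cars, for cysteine, had 74.3 and 77.4 CPM in KO and 44.1 and 43.4 CPM in WT (0.79, adjusted p = 0.000954). Hars, for histidine, had 116.5 and 120 CPM in KO and 67.4 and 72.5 CPM in WT (0.76, adjusted p = 0.00109). Sars, which charges serine and also loads serine on the tRNA for selenocysteine, had 164 and 160 CPM in KO and 98.2 and 97.2 CPM in WT (0.73, adjusted p = 0.000991). In these 3 the KO values were 1.66 to 1.73 times the WT values. Vars, for valine, had 160 and 146 CPM in KO and 96.0 and 96.7 CPM in WT (0.67, adjusted p = 0.00194).

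Farsa and Farsb are the alpha and beta subunits of the phenylalanyl enzyme, which assembles from equal numbers of each. Farsa had 53.0 and 52.3 CPM in KO and 36.8 and 33.0 CPM in WT (log2 change 0.59, adjusted p = 0.00694). Farsb had 67.5 and 65.8 CPM in KO and 40.1 and 42.7 CPM in WT (0.69, adjusted p = 0.00221). Per nucleotide of coding region, Farsa had 0.914 and 0.927 footprints for each one on Farsb in KO and 1.07 and 0.901 in WT. The ratio of subunits stayed near 1 in all 4 libraries, and the genotypes overlapped.

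The 6 cytosolic genes that missed the threshold were Dars and 5 outside the complex. Yars, for tyrosine, had 57.6 and 48.8 CPM in KO and 40.8 and 43.9 CPM in WT (0.33, SE 0.138, adjusted p = 0.0838). It passed without KO replicate 2 (0.46, adjusted p = 0.0394). Nars, for asparagine, had 120 and 111 CPM in KO and 95.7 and 99.0 CPM in WT (0.25, SE 0.117, adjusted p = 0.124). Tars, for threonine, had 93.3 and 84.8 CPM in KO and 72.0 and 81.9 CPM in WT (0.21, SE 0.129, adjusted p = 0.218). In Yars, Nars and Tars, as in Dars and Aars, the genotypes did not overlap, though the differences missed the threshold. Aars, for alanine, had 103 and 112 CPM in KO and 89.0 and 102 CPM in WT (0.17, SE 0.126, adjusted p = 0.313). Wars, for tryptophan, known for its induction by interferon, had 37.5 and 51.8 CPM in KO and 36.9 and 44.3 CPM in WT, the one cytosolic member whose genotypes overlapped (0.14, SE 0.178, adjusted p = 0.566). With library totals alone, Aars (−0.0011) and Wars (−0.03) turned sign, and Wars did so without KO replicate 2 (−0.10).

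By structural class, 8 of 10 cytosolic class I enzymes and 6 of 10 class II enzymes rose, with medians of 0.73 and 0.50. Eprs, which has a domain of each class, was counted in class I. DESeq2 called 8 class I and 5 class II enzymes higher. Among all genes, edgeR called 19.9% higher and DESeq2 13.6%. The classes overlapped widely, class I spanning 0.14 to 1.15 and class II 0.17 to 0.79.

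Levels per length differed several-fold within each compartment. Per kb of coding region, Rars stood highest in KO at 133 and 111 CPM per kb, against 55.5 and 54.9 CPM per kb in WT. Sars, at 105.5 and 103 CPM per kb in KO and 63.3 and 62.7 CPM per kb in WT, was the highest in WT. Iars was the lowest in both genotypes, at 27.5 and 25.3 CPM per kb in KO and 14.8 and 15.8 CPM per kb in WT. The cytosolic median was 46.0 CPM per kb in KO and 35.0 CPM per kb in WT. In descending order, 9 of 19 neighbouring pairs of cytosolic genes overlapped in KO and 10 of 19 in WT, so much of the order is not resolved.

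Among mitochondrial genes Iars2 stood apart, at 27.0 and 24.4 CPM per kb in KO and 26.2 and 25.9 CPM per kb in WT, where the median gene had 5.91 CPM per kb in KO and 6.08 CPM per kb in WT. Vars2 was the lowest in both, at 3.11 and 2.75 CPM per kb in KO and 2.76 and 2.88 CPM per kb in WT. Of 14 neighbouring pairs, 11 overlapped in KO and 8 in WT.

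**Figure D3:**
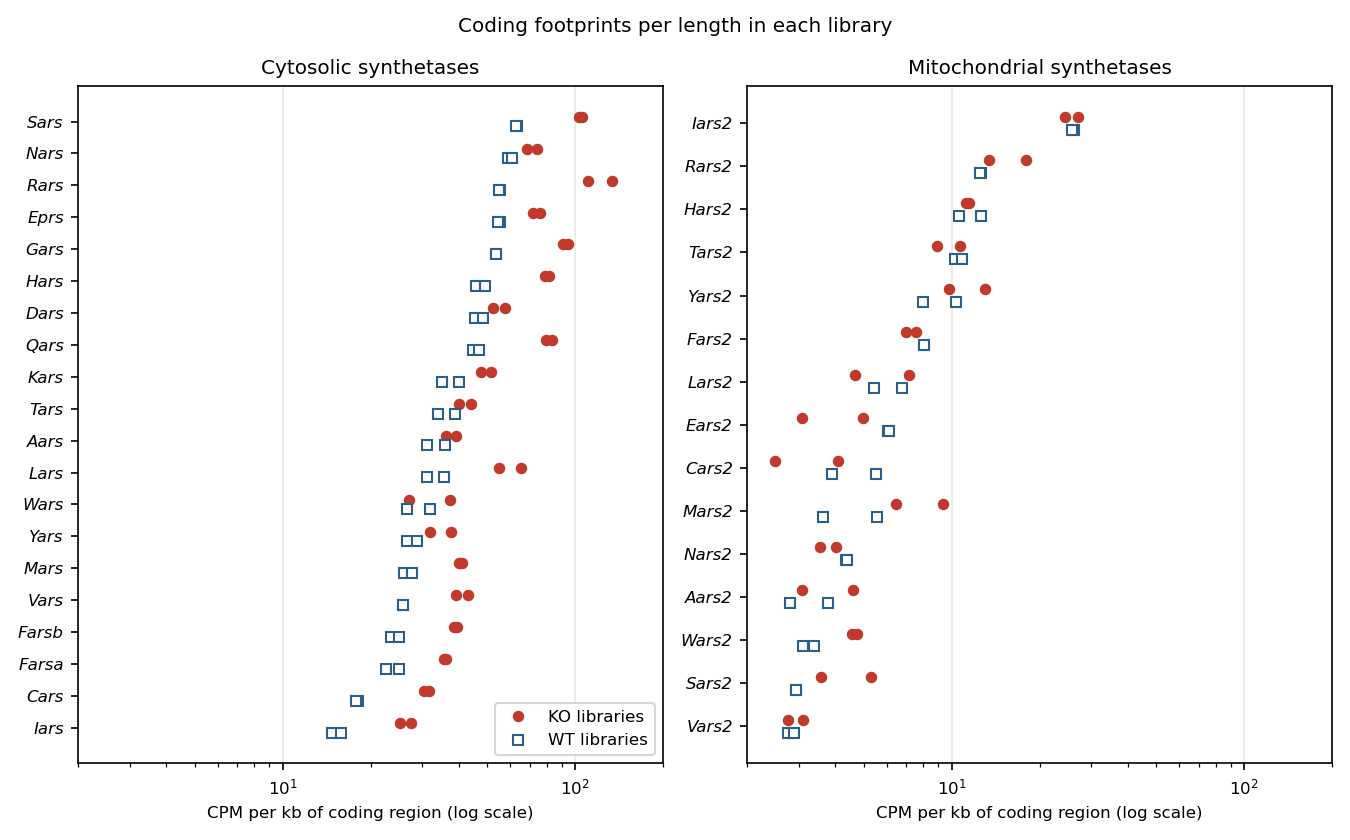
Coding footprints per kb of coding region (CPM per kb, log axis) in each library, KO filled circles and WT open squares, with genes ordered by their WT mean. KO circles lie right of the WT squares for all cytosolic genes but Wars; Iars2 lies at 24.4 to 27.0 in all 4 libraries.

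Mars2, the mitochondrial methionyl enzyme, was the only mitochondrial member past the threshold. It had 72 and 47 footprints in KO and 35 and 41 in WT, or 15.9 and 10.9 CPM in KO and 6.16 and 9.46 CPM in WT (log2 change 0.81, SE 0.285, adjusted p = 0.0488). Both KO libraries were above both WT libraries, with KO replicate 2 close to WT replicate 2. The call was lost without KO replicate 1 (0.52, adjusted p = 0.249), without WT replicate 1 (0.50, adjusted p = 0.28), and also with DESeq2 (0.80, adjusted p = 0.158), with the replicate block (0.81, adjusted p = 0.0503), with library totals (0.63), with upper-quartile factors (0.77) and with unlisted counts at 0 (0.80). Sars2, for serine, had 7.94 and 5.35 CPM in KO and 4.40 and 4.39 CPM in WT (0.60, adjusted p = 0.141). Wars2, for tryptophan, had 4.85 and 4.65 CPM in KO and 3.17 and 3.46 CPM in WT (0.52, adjusted p = 0.195). Rars2, for arginine, had 30.2 and 22.6 CPM in KO and 21.1 and 21.0 CPM in WT (0.33, adjusted p = 0.183). These 3 had KO above WT and did not pass.

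At the other end, Ears2, which charges glutamate, had 7.50 and 4.65 CPM in KO and 9.15 and 9.23 CPM in WT (log2 change −0.59, SE 0.279, adjusted p = 0.125). Without KO replicate 1 it passed as lower (−0.97, adjusted p = 0.0489). Cars2, for cysteine, had 3.97 and 6.51 CPM in KO and 8.80 and 6.23 CPM in WT, with the genotypes overlapping (−0.55, adjusted p = 0.204). Nars2 (−0.20) and Fars2 (−0.14), for asparagine and phenylalanine, had KO below WT by less than their SE of 0.265 and 0.217.

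Iars2, the most abundant, had 80.5 and 72.8 CPM in KO and 78.1 and 77.1 CPM in WT, and a log2 change of −0.02 with an SE of 0.123, the smallest error among the mitochondrial members. Its estimate was as precise as those of the cytosolic genes. Hars2 (−0.04), Lars2 (−0.05), Tars2 (−0.10), Vars2 (0.06), Aars2 (0.24) and Yars2 (0.30) overlapped between genotypes. Pars2, for proline, had 15 and 31 footprints in KO and 22 in WT replicate 1; WT replicate 2 was unlisted, which allows up to 13, and the gene was not tested.

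Setting a mitochondrial gene beside the cytosolic gene for the same amino acid removes differences in library scaling. Pairs were formed by name, so Ears2 and Fars2, whose cytosolic counterparts are named Eprs and Farsa with Farsb, were left out. Of 13 such pairs, the cytosolic gene had the larger log2 change in 10, with a median difference of 0.45. The ratio of cytosolic to mitochondrial footprints was higher in both KO libraries than in both WT libraries for 8 pairs, lower for 1, and overlapping for 4. Among all single genes tested, both KO libraries lay above WT for 35.4% and below for 36.5%. The share among other gene pairs was not computed. Iars had 1.27 and 1.29 footprints for each on Iars2 in KO, against 0.705 and 0.763 in WT, so that Iars had more footprints than Iars2 in KO and fewer in WT. Rars had 8.49 and 9.45 footprints for each on Rars2 in KO, against 5.06 and 5.02 in WT. Cars had 18.7 and 11.9 for each on Cars2 in KO, against 5.02 and 6.96 in WT. The 1 lower pair was tryptophan, where Wars had 7.73 and 11.2 footprints for each on Wars2 in KO and 11.7 and 12.8 in WT. Wars2 had only 22 and 20 footprints in KO and 18 and 15 in WT. For this pair KO replicate 2 lay close to WT replicate 1. The pairs Aars/Aars2, Mars/Mars2, Sars/Sars2 and Yars/Yars2 overlapped. Hars and Hars2 are close relatives, and the sources used here do not say how reads shared between them were counted. No test was run on these ratios, since the members share libraries.

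**Figure D4:**
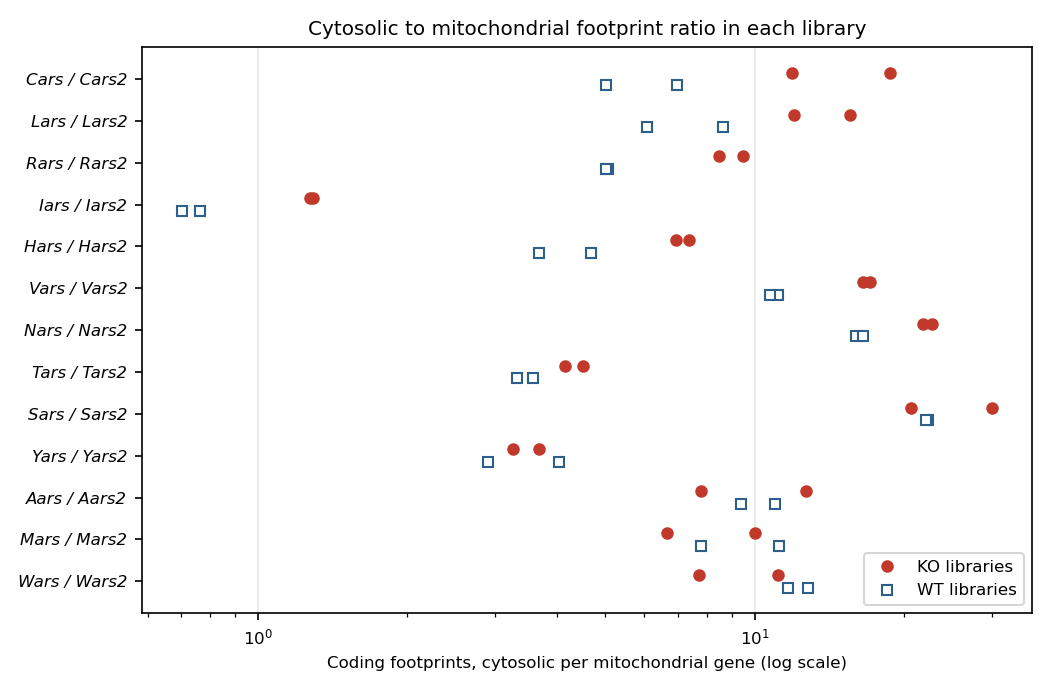
Coding footprints on the cytosolic gene for each footprint on its mitochondrial counterpart (x axis, log scale) in every library, for 13 amino acids ordered by the difference in log2 change. KO circles lie right of the WT squares in 8 pairs and left of them for Wars/Wars2.

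Other genes of tRNA charging were read against the 19.9% of all genes called higher by edgeR and the 13.6% by DESeq2. Among partners of mitochondrial charging, the amidotransferase subunits Gatc (−0.02, adjusted p = 0.961) and Qrsl1 (−0.15, adjusted p = 0.695), which make glutaminyl-tRNA by transamidation, did not pass, nor did Mtfmt (0.05, adjusted p = 0.912), which formylates the initiator. Of 9 further synthetase-related genes, only Aarsd1, a relative of the alanyl editing domain, rose (0.54, adjusted p = 0.0327), and DESeq2 called 0 of the 9. Of 21 genes of tRNA maturation and export, 6 rose (28.6%) and none fell, with a median of 0.11, while DESeq2 called 2 higher, a share below that of all genes. Those that rose include the RNase P subunits Rpp38 (1.08, adjusted p = 0.015), Pop1 (0.99, adjusted p = 0.0118) and Pop5 (0.79, adjusted p = 0.0172) and the tRNA 3′ end nuclease Elac2 (0.80, adjusted p = 0.00289). Of the other RNase P subunits tested, Rpp30 also rose (0.75), while Pop4 (0.11), Rpp14 (−0.03), Rpp21 (−0.13) and Rpp40 (0.67) did not pass. Of 15 mitochondrial translation and transcription factors, 3 rose and none fell (median 0.16), a share about that of all genes, and DESeq2 called 1 higher. The 3 were Lrpprc (0.57, adjusted p = 0.00472), an RNA-binding protein that stabilises mitochondrial mRNAs, and the elongation factors Gfm1 (0.51, adjusted p = 0.0112) and Tufm (0.43, adjusted p = 0.0221).

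Beside these, 75 of 75 cytosolic ribosomal protein genes rose with a median log2 change of 1.46. Of 76 mitochondrial ribosomal protein genes, 24 rose (31.6%) with a median of 0.41, beside 19.9% of all genes called higher by edgeR. The cytosolic synthetases, at 0.63, lay between those medians, and the mitochondrial synthetases below both. No test compared these lists.

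Genes of the ATF4 programme, chosen from general knowledge of its targets, were called about as often as all genes in both directions. Of 25 tested, 6 rose (24.0%, beside 19.9% of all genes), 5 fell (beside 19.1%) and 14 did not pass, with a median of 0.30. DESeq2 called 5 higher and 4 lower. Atf4 itself had 10.4 and 11.9 CPM in KO and 6.86 and 11.5 CPM in WT (log2 change 0.30, SE 0.279, adjusted p = 0.423). The largest rises were in asparagine synthetase Asns, with 83.0 and 67.0 CPM in KO and 31.8 and 32.8 CPM in WT (1.22, adjusted p = 0.000214), the cationic amino acid transporter Slc7a1 (1.13, adjusted p = 0.000206), the transcription factor Cebpb (1.11, adjusted p = 2e-04) and the large neutral amino acid transporter Slc7a5 (0.90, adjusted p = 0.00547). The 5 that fell were the proline synthesis enzyme Pycr1 (−1.33, adjusted p = 0.00229), the glutamine transporter Slc1a5 (−1.28, adjusted p = 3e-04), the stress-induced Nupr1 (−0.98, adjusted p = 0.00466), the mitochondrial folate enzyme Mthfd2 (−0.87, adjusted p = 0.0242) and the transporter Slc1a4 (−0.83, adjusted p = 0.0138).

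Promoters were searched for the core of the element that ATF4 binds with C/EBP partners, spelled TGATGNAA, on both strands, in RefSeq windows from 250 bases before to 50 after the gene start (GRCm38.p6). Windows were matched for 27 members, 13 cytosolic and 14 mitochondrial; Cars, Hars, Lars, Nars, Rars, Vars, Wars, Hars2 and Pars2 had none. A match was present in 5 of 13 cytosolic and 0 of 14 mitochondrial members, beside 3.97% of all 32851 windows. One site for each of the 5 genes is shown. The element was searched because ATF4 is known to bind it at synthetase genes, so the matches are not an independent finding. Each is given 5′ to 3′ on the gene's strand with the match in capitals; in Yars it lies on the gene's strand and elsewhere on the opposite strand, where its reverse complement is shown.
Aars, chr8:111033840-111033869, + strand: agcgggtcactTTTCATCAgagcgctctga
Gars, chr6:55037960-55037989, + strand: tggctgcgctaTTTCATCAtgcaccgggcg
Iars, chr13:49682126-49682155, + strand: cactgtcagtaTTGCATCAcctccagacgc
Tars, chr15:11399655-11399684, − strand: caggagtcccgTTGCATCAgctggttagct
Yars, chr4:129189895-129189924, + strand: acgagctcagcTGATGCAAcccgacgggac
Of the 5 genes, Gars and Iars rose, while Aars, Tars and Yars did not pass the test. Eprs, Farsa, Farsb, Kars, Mars, Qars and Sars rose without a match in their windows. A match is a description of these letters, not evidence of binding.

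Footprints outside the coding region were few. Over the 20 cytosolic genes, 3′ UTRs held 7 and 10 footprints in KO and 8 and 6 in WT, which per 100 coding footprints is 0.0585 and 0.0928 for the KO libraries and 0.0848 and 0.0807 for the WT ones. All transcripts listed in the 4 libraries had 0.537 and 0.609 per 100 in KO and 0.675 and 0.645 in WT. Lars2 was the one member with enough 3′ UTR footprints to test, with 8 and 10 in KO and 7 and 21 in WT; in WT replicate 2 it also had more 5′ UTR footprints (7) than in the other libraries (0 to 2). Per 100 coding footprints these were 9.30 and 18.9 in KO and 6.86 and 33.9 in WT, so the WT libraries lay on either side of both KO libraries. The edgeR interaction test scales each region by its own TMM factors, so its value is a change of the ratio relative to that of the typical gene, not of the raw ratio. On that scale Lars2 did not pass (log2 value 0.11, SE 0.675, adjusted p = 0.923), where 10.8% of 223 genes did. The value turned sign without WT replicate 1 (−1.20).

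The 5′ UTRs of the cytosolic genes held 70 and 77 footprints in KO and 36 and 30 in WT, which per 100 coding footprints is 0.585 and 0.715 for the KO libraries and 0.382 and 0.403 for the WT ones. The genotypes did not overlap, and neither did they over all transcripts listed in the 4 libraries, with 1.44 and 1.68 per 100 in KO and 1.06 and 0.972 in WT. Lars had 15 and 15 footprints in its 5′ UTR of 99 nt in KO and 7 and 3 in WT, and Kars had 11 and 10 in KO and 8 and 5 in WT. Per 100 coding footprints Lars had 1.45 and 1.82 in KO and 1.13 and 0.560 in WT, and Kars had 2.58 and 2.67 in KO and 1.93 and 1.82 in WT. Both raw ratios were higher in both KO libraries, as was the sum over all transcripts. Relative to the typical gene, neither passed the interaction test on the 5′ UTR, which was added after the data were seen and in which 1.17% of 1618 genes passed. The log2 value on that relative scale was 0.18 for Lars (SE 0.509, adjusted p = 0.909) and −0.25 for Kars (SE 0.504, adjusted p = 0.847). Without WT replicate 2 the relative value for Lars was −0.19.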

How the data were processed

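The deposited table gives raw counts of ribosome footprints per transcript, split by the authors into 5′ UTR, coding region and 3′ UTR on mm9 annotations, per the file headers. Tools listed without a role in the submitters' processing notes are TopHat2 2.0.10, Bowtie2 2.2.6 and CASAVA 1.8, with the builds hg19 and mm9. The handling of reads that several genes share is not stated there. A second deposited table, described as short footprints of 20 to 22 nt, is byte-identical to that described as 28 to 34 nt, so the length class is unknown. Values are listed only above 0.01 coding footprints per nt. Coding footprints numbered 4925876 and 4521561 in KO and 5282276 and 4221675 in WT.

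Of 13167 transcripts, 11019 were listed in all 4 libraries and 10953 had at least 10 counts in at least 2. They were fitted in edgeR 4.0.16 (R 4.3.3) with TMM scaling (factors of 0.926 and 0.957 for the KO libraries, of 1.09 and 1.04 for the WT ones), genotype as the only term, and Benjamini-Hochberg adjustment with a threshold of 0.05; the SE is the log2 change divided by the root of F. Ratios of UTR to coding counts were tested as an interaction with the library as a factor and TMM within each region, so these values are relative to the typical gene. The fits were run on simulated data with a fixed dispersion for all genes and changes in both directions. That run checked the code and not the scaling or the calls here. Alternatives were other scalings, DESeq2 1.42.0, filters, a replicate block and each library left out. Intervals cover counting error only. The members and lists were chosen with earlier results of these data known. By rule, full values are given for members past the threshold and for the extremes of level and change, and other lists name at most the 4 largest called changes and any count of 5 or fewer. Other genes and members were named after their values were seen. Gatb (also searched as Pet112l), D10Wsu52e and Rpp25 were not matched. A few items that these lists and searches would name are not reported here.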

Additional observations from a re-analysis of the deposited data

How the results depend on the processing

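Of the 15 called members, 12 kept their call and direction under all 11 alternatives, and Eprs, Kars and Mars2 lost it under at least 1. Of the 20 not called, Yars and Ears2 gained a call when 1 library was left out, and 8 turned sign at least once. The number of cytosolic genes called higher ran from 12 to 15, with 0 called lower. The mitochondrial number called higher fell to 0 with library totals, upper-quartile factors, DESeq2, unlisted counts at 0 and the replicate block, and was 0 or 1 with any 1 library omitted, as was the number called lower. DESeq2 called 13 cytosolic genes higher, beside 13.6% of all genes.

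Library totals alone moved the median of all genes by −0.18, to 13.7% called higher and 27.6% lower. The cytosolic median was then 0.46 with 12 genes called higher, the mitochondrial median −0.19, and Aars (−0.0011), Wars (−0.0307) and Vars2 (−0.12) turned sign. Upper-quartile factors gave a cytosolic median of 0.60. When 1 library was left out, the cytosolic median ran from 0.62 to 0.66, the mitochondrial from −0.0729 to 0.15, and their difference from 0.51 to 0.69. Over the same fits, log2 changes that turned sign ran from −0.10 to 0.37 for Wars, −0.0729 to 0.51 for Aars2, −0.15 to 0.0866 for Hars2, −0.0831 to 0.0639 for Iars2, −0.39 to 0.23 for Lars2, −0.23 to 0.0298 for Tars2 and −0.0221 to 0.15 for Vars2. The 3′ UTR ratio of Lars2, relative to the typical gene, ran from −1.20 to 0.60 and the 5′ UTR ratio of Lars from −0.19 to 0.74, each over 2 of the 4 omissions, as the gene missed the count minimum under the others. The causes were not tested.

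Replicate numbers are shared by KO and WT, and the labels give no meaning for them. Deviations of same-numbered libraries from their genotype mean did not correlate across genes (r = −0.0052). That single value cannot show whether same-numbered libraries were prepared together. With the replicate block the cytosolic count was 14 and its median 0.63, and Mars2 was the 1 member to lose its call (0.81, adjusted p = 0.0503). Low counts limit the mitochondrial genes, whose median SE was 0.240.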
